A study of Mus musculus with 29 samples.

Results

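A set of 10 genes of the circadian clock and its direct output, chosen by name, was followed through the mouse aortic arch. They were the activators Bmal1, Clock and Npas2, the repressors Per1, Per2 and Per3, the nuclear receptors Nr1d1 and Nr1d2, and the output transcription factors Dbp and Tef. Each was matched by symbol to the Ensembl identifier of the deposited count table, which gave 10 of its 56748 genes. All 10 passed the filter on low counts, which left 12353 genes for testing.

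In this clock, BMAL1 pairs with CLOCK, or with its relative NPAS2, binds E-box sequences and switches on the Per and Cry genes, the Nr1d genes and Dbp. PER and CRY proteins then hold BMAL1 and CLOCK back, while NR1D1 and NR1D2 (REV-ERBα and REV-ERBβ) repress Bmal1 through ROR elements, so that Bmal1 and the Nr1d and Dbp transcripts are high at opposite times of day. DBP and TEF, together with HLF, activate genes through D-boxes, to which NFIL3 binds as a repressor. Cells of the vessel wall carry this clock, and meal time is a strong time cue for clocks outside the brain.

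The mice were Ercc1Δ/−, which carry 1 null and 1 truncated allele of the DNA repair gene Ercc1 and age rapidly, and Ercc1+/+ (WT) littermates, all F1 hybrids of C57BL6J and FVB that were housed singly on AIN93G pellets. The 6 groups were WT and Ercc1Δ/− at 6 weeks on ad libitum (AL) food (5 and 5 mice), WT and Ercc1Δ/− at 22 weeks on AL food (4 and 4 mice used), and WT and Ercc1Δ/− at 22 weeks on dietary restriction (DR; 5 and 5 mice). Each group held 2 females, except WT mice at 22 weeks on AL food with 1 used (replicate 018), and the other mice were male. DR began at week 7 and was at 30% from week 9. Lights were on from noon to midnight, and restricted mice were fed shortly before dark. The hour at which each mouse was killed is not given in the sources used here, and AL mice could eat at any hour. The part of that hour in the differences between mice and groups was not tested. For every clock gene below, a changed level and a shifted time of day cannot be told apart.

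The 28 libraries held 921167 to 9616382 counts on genes (median 3256708), with lower totals in Ercc1Δ/− mice at 22 weeks (group medians 2392575.5 on AL and 1576566 on DR) than in WT mice (6212607 and 5557760). Mitochondrial genes took 5.37% to 5.96% of counts in Ercc1Δ/− and 2.47% to 3.72% in WT mice at 22 weeks on AL, without overlap, and 4.04% to 9.22% and 2.88% to 5.12% on DR. Their part in the clock gene differences was not tested. A further WT library at 22 weeks on AL food, replicate 003 with 400410 counts, was left out. Ercc1 itself was lower in Ercc1Δ/− mice at 6 weeks (0.376-fold), at 22 weeks on AL (0.512-fold) and on DR (0.498-fold), as the genotype labels say. Levels are given as TMM-scaled CPM, counts scaled to a common library size. A gene was called where edgeR's adjusted p was at most 0.05 and the change at least 1.2-fold, without the limit on the fold for interactions. Each mouse gave 1 library.

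The stretches just before the annotated starts of the 3 Per genes and of Dbp are shown because Per3 and Per2 carried the called decreases and Dbp, with Nr1d1, the widest range between mice. Positions are on GRCm39 with GENCODE starts, 5′ to 3′ on the strand of the gene, without exonic bases, and capitals mark the motif found. Per1, chr11:68989018-68989267 on the plus strand, holds an E-box (CACGTG). Per2, chr1:91387070-91387296 on the minus strand, holds 1 D-box (TTATGTAA), whereas Per3, chr4:151129141-151129390 on the minus strand, holds 2. Dbp, chr7:45354262-45354511 on the plus strand, holds a ROR element.
Per1: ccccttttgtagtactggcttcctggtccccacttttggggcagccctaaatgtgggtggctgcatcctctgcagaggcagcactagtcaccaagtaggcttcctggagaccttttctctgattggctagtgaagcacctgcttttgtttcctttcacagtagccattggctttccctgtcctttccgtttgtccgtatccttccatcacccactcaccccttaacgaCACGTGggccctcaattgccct
Per2: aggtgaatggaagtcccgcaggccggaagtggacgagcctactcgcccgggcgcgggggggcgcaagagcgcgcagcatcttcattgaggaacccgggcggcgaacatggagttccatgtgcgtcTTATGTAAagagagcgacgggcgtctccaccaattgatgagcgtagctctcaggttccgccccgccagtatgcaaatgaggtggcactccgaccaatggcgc
Per3: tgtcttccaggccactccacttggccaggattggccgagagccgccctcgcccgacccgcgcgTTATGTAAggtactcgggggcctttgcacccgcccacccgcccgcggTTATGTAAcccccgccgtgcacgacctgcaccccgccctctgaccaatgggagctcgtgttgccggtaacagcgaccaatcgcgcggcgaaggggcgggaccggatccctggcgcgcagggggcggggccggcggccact
Dbp: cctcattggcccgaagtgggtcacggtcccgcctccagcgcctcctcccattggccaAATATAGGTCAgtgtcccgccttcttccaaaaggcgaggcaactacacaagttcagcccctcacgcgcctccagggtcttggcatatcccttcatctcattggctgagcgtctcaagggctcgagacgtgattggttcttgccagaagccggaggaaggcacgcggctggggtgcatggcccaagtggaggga

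Searched on both strands of the 250 bases before the start, the E-box CACGTG stood in 6.26% of 21757 promoters, the D-box (TTATGTAA or TTACGTAA) in 0.933% and the ROR element in 0.303%. Tef also held an E-box, 138 to 133 bases before its start, and Nr1d1 the E-box variant CACGTT (4.16% of promoters) on its other strand. None of these letters stood in the windows of Bmal1, Clock, Npas2 and Nr1d2, of whose 250 bases 241, 40, 182 and 0 are exonic in other annotated transcripts, so that for Bmal1 and Npas2 little sequence outside exons was searched. These matches are descriptions of sequence, and binding was not measured.

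Per kilobase of annotated exon, the mean level over the 28 mice was highest for Dbp (52.1 CPM per kb ± 46.0 SD), Nr1d1 (47.2 ± 47.0), Per2 (44.9 ± 9.92) and Tef (43.8 ± 11.2), whose spreads overlapped. These SDs include the differences between groups, and levels were not tested between genes. Per1 followed at 28.6 ± 9.88 CPM per kb. Nr1d2 (14.5 ± 4.72) and Per3 (11.0 ± 3.35) lay within each other's spread, and then came Clock at 2.17 ± 0.547. Npas2 (0.805 ± 0.300) and Bmal1 (0.383 ± 0.421) were lowest and overlapped. Before division by exon length their means were 4.41 and 4.43 CPM, so that their order came from that length. Bmal1 had 338 counts and Npas2 462 counts over all 28 libraries, so that single libraries held 0 to 31 counts of Bmal1 and 2 to 57 of Npas2, and their values are coarse. Nr1d1 overlaps Thra, Dbp overlaps Sphk2, Per3 overlaps Uts2 and Clock overlaps Tmem165 on the opposite strand. The kit keeps strand, but the strand setting of the counting is not given in the sources used here.

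**Figure D1:**
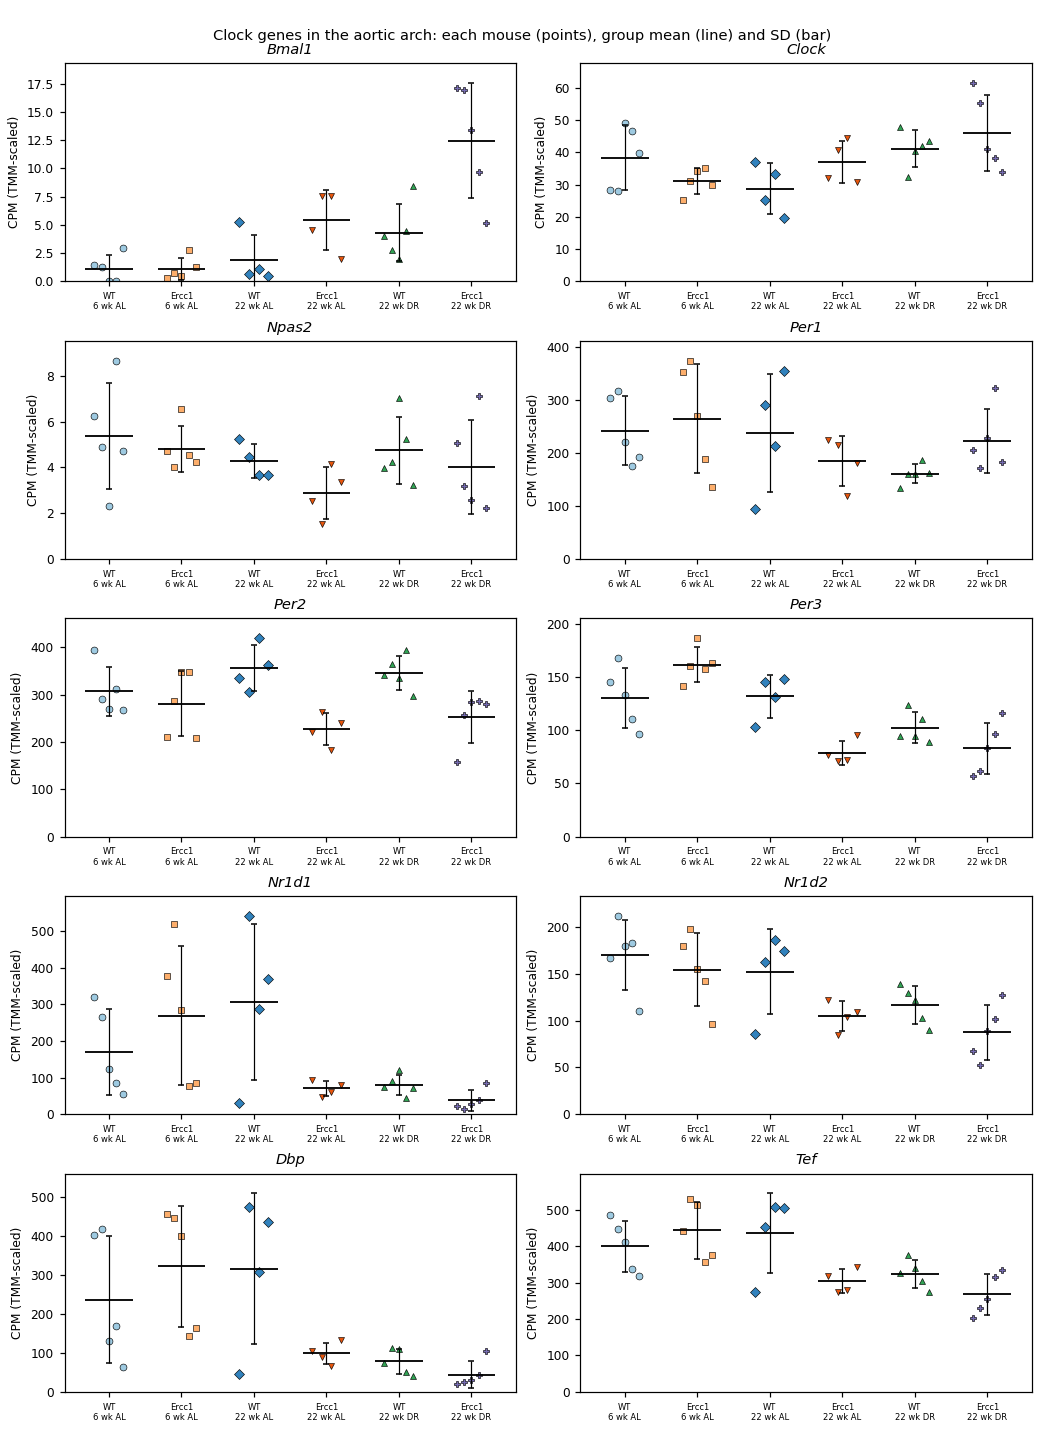
TMM-scaled CPM (y axis, from 0, a scale per gene) of the 10 clock genes in each of the 28 mice by group (x axis), with Ercc1 standing for Ercc1Δ/−. Points are mice, lines group means and bars SDs. Per3 of all 4 Ercc1Δ/− mice at 22 weeks on AL (70.8 to 95.4 CPM) lies under the 4 WT mice, and Dbp of 1 WT mouse of that age (45.3 CPM) lies far under the other 3.

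Genotype at 22 weeks on AL food was the comparison with the most clock genes called. Per3 and Per2, which encode partners of CRY in the repressor complex, fell in Ercc1Δ/− mice and the activator Bmal1 rose, 3 of 10 members against 12.0% of all tested genes, and 7 of 10 had an unadjusted p under 0.05 (3221 of 12353 genes). Several members rose and fell together over the mice, as given below. Counts of members, here and in the other comparisons, are therefore not counts of independent genes. Per3 was at 103, 145, 131 and 148 CPM in WT mice and at 76.6, 70.8, 71.8 and 95.4 CPM in Ercc1Δ/− mice. The groups did not overlap, and Per3 fell 0.595-fold (log2 fold change −0.75, SE 0.16, adjusted p = 0.00264). Per2 was at 335, 306, 419 and 363 CPM in WT mice and at 220, 264, 183 and 240 CPM in Ercc1Δ/− mice. Here too every Ercc1Δ/− mouse lay under every WT mouse, with a 0.625-fold change (log2 −0.68, SE 0.18, adjusted p = 0.0147). Groups without overlap were found for these 2 of 10 members and for 18.6% of all tested genes. The exact two-sided permutation test of either gene gave p = 0.0286, the smallest that 4 against 4 mice allow, and adjusted over 70 such tests p was 0.2. With the shallow replicate 003 added to the WT mice, the adjusted p of Per2 was 0.0964.

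Bmal1 was at 5.24, 0.622, 1.13 and 0.461 CPM in WT mice and at 4.54, 7.53, 7.55 and 2.02 CPM in Ercc1Δ/− mice at this age. A single WT mouse, replicate 012, thus lay among the Ercc1Δ/− mice, and the other 3 lay under all of them. The fitted rise was 3.72-fold (log2 1.90, SE 0.61, adjusted p = 0.0441) and was not called by DESeq2 (adjusted p = 0.163), and by edgeR it was lost on leaving out any of replicates 004, 005 and 013 of the Ercc1Δ/− or 018, 020 and 025 of the WT mice (adjusted p = 0.0684 to 0.314), with a log2 fold change of 1.29 without replicate 018. Clock, its partner, was at 19.6 to 36.9 CPM in WT and 30.9 to 44.5 CPM in Ercc1Δ/− mice (adjusted p = 0.269).

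The same WT mouse was the lowest of its group in Dbp and Nr1d1, but not in Per2 (335 CPM), Cry1 or Cry2. Dbp was at 45.3 CPM in replicate 012 and at 474, 307 and 434 CPM in the other WT mice on AL food at 22 weeks, while Ercc1Δ/− mice had 105, 90.4, 66.7 and 132 CPM. Nr1d1 was at 29.6 CPM in replicate 012 against 542, 287 and 369 CPM, and at 93.9, 48.2, 59.9 and 78.6 CPM in Ercc1Δ/− mice. For both genes all Ercc1Δ/− mice therefore lay between replicate 012 and the other WT mice. With all 4 WT mice, Dbp (log2 −1.72, SE 0.72, adjusted p = 0.147) and Nr1d1 (log2 −2.22, SE 0.83, adjusted p = 0.103) were not called by edgeR, and neither were Tef (log2 −0.53, adjusted p = 0.0699) and Nr1d2 (log2 −0.59, adjusted p = 0.155). DESeq2 called 4 of 10 members with all 4 WT mice, Per3 and Per2 among them but not Bmal1, and 1685 genes in all. Without replicate 012, 6 of 10 members were called by edgeR instead of 3, with 1288 genes called in all instead of 1487. These were Per2 and Per3, Bmal1 (log2 2.69, adjusted p = 0.00289), Nr1d1 (log2 −2.56, adjusted p = 0.0391), Nr1d2 (log2 −0.76, adjusted p = 0.0302) and Tef (log2 −0.69, adjusted p = 0.00497). Replicate 012 was chosen for this after its values were seen.

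At 6 weeks no member was called for genotype. edgeR called 0 of 10 (1.70% of all genes), with 1 member at an unadjusted p under 0.05, and DESeq2 called 0. That member was Per3, at 145, 168, 133, 111 and 96.3 CPM in WT and 141, 160, 186, 157 and 163 CPM in Ercc1Δ/− mice (log2 0.30, SE 0.13, adjusted p = 0.337). Dbp ranged from 63.9 to 418 CPM in WT and from 144 to 455 CPM in Ercc1Δ/− mice, so that mice of 1 group differed more than the group means. Bmal1 had 0 counts in 2 WT mice, which allows up to 2.31 and 3.25 CPM (3 counts in the library, counting error only), and reached 2.95 CPM in WT and 2.73 CPM in Ercc1Δ/− mice.

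From 6 to 22 weeks on AL food, Per3 fell and Bmal1 rose in Ercc1Δ/− mice, 2 of 10 members against 4.69% of all genes, and 6 of 10 had an unadjusted p under 0.05 (2199 of 12353 genes). Per3 went from 141 to 186 CPM at 6 weeks to 70.8 to 95.4 CPM at 22 weeks, 0.484-fold (log2 −1.05, SE 0.15, adjusted p = 1.06e-04). The call for Bmal1, 5.12-fold (log2 2.36, SE 0.67, adjusted p = 0.0442), was lost in 8 of its 16 alternatives. Among these 8 were the fits without replicate 002, 008 or 015 of the younger or 004, 005 or 013 of the older mice. Over all 16 alternatives, its adjusted p ran from 0.0154 to 0.203. Without replicate 023 of the younger mice the log2 fold change of Bmal1 was 3.17. DESeq2 called 3 of 10 members for age here, Per3 and Bmal1 among them, and 728 genes in all. Dbp and Tef were not called by edgeR (adjusted p = 0.205 and 0.0813), although all 4 older mice lay under all 5 younger ones, as for Per3. For Tef, the older mice had 319, 273, 279 and 342 CPM and the younger 441, 530, 513, 357 and 377 CPM. Such a lack of overlap held for 3 of 10 members and for 6.78% of all tested genes.

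In WT mice no member was called for age. edgeR and DESeq2 both called 0 of 10 members (0.235% of all genes by edgeR), and 0 had an unadjusted p under 0.05 in either. Per3 was at 130 CPM ± 28.2 (SD, n = 5) at 6 weeks and 132 CPM ± 20.6 (SD, n = 4) at 22 weeks. Tested directly, the age effect differed between genotypes for 1 of the 10 members, Per3 (0.842% of all genes called). At an unadjusted p under 0.05 there were 7 members by edgeR, against 1409 of 12353 genes, and 6 by DESeq2. Nr1d1 (log2 −2.87, SE 1.08, adjusted p = 0.32), Bmal1 (log2 2.32, SE 0.98, adjusted p = 0.364) and Dbp (log2 −2.17, SE 0.95, adjusted p = 0.407) had larger differences than Per3 with larger errors. The log2 difference of Per3 was −1.05 (SE 0.21, adjusted p = 0.012). Leaving out replicate 018 of the WT mice at 22 weeks brought this to an adjusted p of 0.053, and over the 25 alternatives it ran from 5.64e-04 to 0.053. Without replicate 012, Tef was called as well (log2 −0.85, adjusted p = 0.0395).

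**Figure D2:**
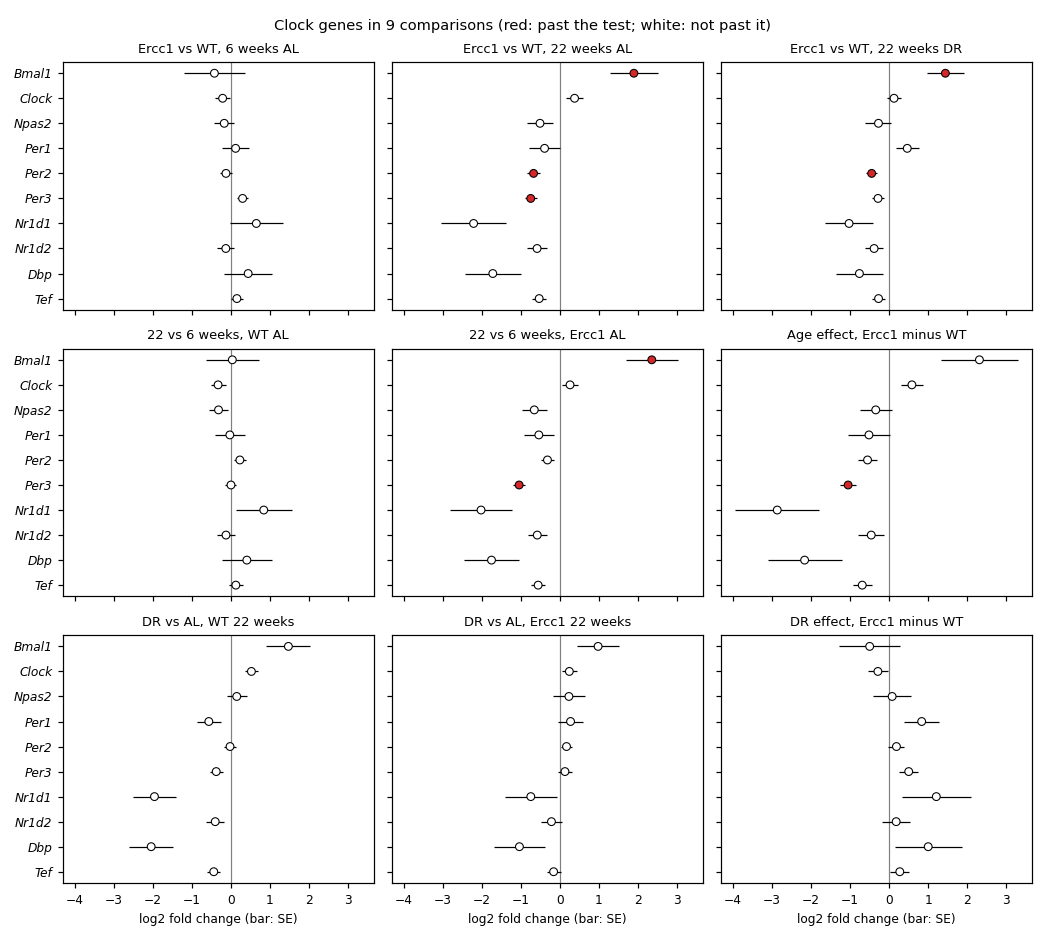
Log2 fold changes (x axis) of the 10 clock genes (y axis) in the 9 comparisons, with bars for the SE and red for genes past the test. Ercc1 stands for Ercc1Δ/−. Per3, at −0.75 and −1.05, has short bars, whereas Dbp and Nr1d1 lie further from 0 in several panels with SEs of 0.56 to 1.08.

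For dietary restriction in WT mice no member was called. Dbp was at 75.0, 114, 109, 51.6 and 40.1 CPM on DR against 45.3 to 474 CPM on AL (log2 −2.04, SE 0.56, adjusted p = 0.116). Nr1d1 was at 75.4, 89.6, 120, 43.8 and 70.9 CPM on DR against 29.6 to 542 CPM on AL (log2 −1.96, SE 0.56, adjusted p = 0.134). All 5 restricted mice thus lay under the 3 high AL mice and, except for Dbp in the lowest of them, over replicate 012. edgeR called 0 of 10 members (1.28% of all genes), while 6 had an unadjusted p under 0.05 (1581 of 12353 genes) and DESeq2 called 1, Dbp (adjusted p = 0.0334), among 228 genes in all. Without replicate 012, edgeR called 4 members, with 204 genes called in all instead of 158. They were Dbp (log2 −2.40, adjusted p = 0.0138), Nr1d1 (log2 −2.33, adjusted p = 0.00784), Tef (log2 −0.60, adjusted p = 0.0138) and Bmal1 (log2 2.33, adjusted p = 0.0192). Per2 was at 346 CPM ± 35.9 (SD, n = 5) on DR and 356 CPM ± 48.4 (SD, n = 4) on AL.

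In Ercc1Δ/− mice no member was called for diet. edgeR called 0 of 10 (1.64% of all genes) with 0 at an unadjusted p under 0.05, and DESeq2 called 0 with 2 at an unadjusted p under 0.05. Dbp was at 19.7, 25.5, 29.3, 42.1 and 105 CPM on DR and 66.7 to 132 CPM on AL (log2 −1.04, SE 0.65, adjusted p = 0.489), so that 4 of 5 restricted mice lay under all AL mice. Per3 was at 82.7 CPM ± 24.3 (SD, n = 5) on DR and 78.6 CPM ± 11.4 (SD, n = 4) on AL. The diet effect itself did not differ detectably between genotypes, with 0 of 10 members called by edgeR and by DESeq2 (0.0971% of all genes by edgeR) and 0 and 1 at an unadjusted p under 0.05.

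On DR, Per2 was lower and Bmal1 higher in Ercc1Δ/− than in WT mice, 2 of 10 members against 13.0% of all genes. Per2 was at 341, 364, 336, 394 and 297 CPM in WT and 157, 256, 284, 287 and 280 CPM in Ercc1Δ/− mice. The groups did not overlap, as for 8.27% of all tested genes, and the change was 0.734-fold (log2 −0.45, SE 0.14, adjusted p = 0.0367). Bmal1 was at 3.97, 2.81, 1.96, 4.43 and 8.41 CPM in WT and 17.2, 17.0, 13.4, 9.71 and 5.15 CPM in Ercc1Δ/− mice, and 4 of the 5 latter were over all WT mice. Its rise of 2.72-fold (log2 1.44, SE 0.47, adjusted p = 0.0498) lay at the threshold and was lost in 10 of 17 alternatives, and that of Per2 in 9 of 17. Both were lost without replicate 007, 010, 017 or 028 of the WT or 014 or 029 of the Ercc1Δ/− mice, and Bmal1 also without 006 or 016 (adjusted p of Bmal1 0.0741 to 0.133, of Per2 0.0508 to 0.0985). Per3, at 89.0 to 124 CPM in WT and 57.2 to 116 CPM in Ercc1Δ/− mice, was not called (adjusted p = 0.296). Per1, whose transcript also responds to glucocorticoids, was at 134 to 186 CPM in WT and 172 to 322 CPM in Ercc1Δ/− mice (adjusted p = 0.368).

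Mice of 1 group differed widely in some members and less in others. Around the group means, the SD of log2 CPM was 1.11 for Nr1d1, 0.98 for Dbp and 0.90 for Bmal1, against a median of 0.26 over all tested genes, and 99.7%, 99.3% and 98.8% of tested genes had a smaller SD. Tef, Per2 and Per3 (SD 0.27 each) lay near that median. All 10 members were above it, and edgeR's biological coefficient of variation was 0.66 for Nr1d1, 0.61 for Dbp and 0.17 for Per3 (median gene 0.13). By that coefficient, 69.9% of tested genes varied less than Per3 and 73.4% less than Tef. Ranges over the mice of all groups together are wider, because they include the differences between groups. Taken so, Dbp ran 24.1-fold and Nr1d1 39.2-fold from the lowest to the highest mouse, compared with 3.26-fold for Per3 and 2.61-fold for Tef. Within a group, the widest ranges were 10.5-fold for Dbp, 18.3-fold for Nr1d1 and 1.84-fold for Tef. These were all in WT mice at 22 weeks on AL. For Per3 the widest was 2.02-fold, in Ercc1Δ/− mice at 22 weeks on DR.

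Several members rose and fell together. Over the 28 mice, the 10 pairs among Per3, Nr1d1, Nr1d2, Dbp and Tef had Pearson r of log2 CPM between 0.78 and 0.96, and between 0.62 and 0.93 after each group was centred on its mean. These genes were set apart from all 45 pairs for their high r, so the range follows from that choice. They include Per3 and Tef, whose SD within groups lay near that of the median gene. Dbp and Nr1d1 were closest, with r = 0.96 and Spearman rho = 0.93, and r = 0.95 without the 2 mice most extreme in Nr1d1. Bmal1 ran the other way, with r = −0.85 and rho = −0.89 against Dbp, and −0.67 within groups. It was −0.94 without the 2 mice most extreme in Bmal1. These were WT replicates 011 and 019 at 6 weeks, with 0 counts of Bmal1, whose log2 CPM is set by the prior count. Clock was also opposite to Dbp (r = −0.79, within groups −0.71). Per1 followed Nr1d1 (r = 0.61, within groups 0.76), and Per2 was looser, at 0.32 with Dbp and 0.48 with Per3. Npas2 lay between −0.28 and 0.29 with every other member. The points share library and depth. Log2 total counts correlated with Dbp at r = 0.46, with Per3 at 0.45 and with Bmal1 at −0.22. Within groups these were 0.37, 0.34 and 0.23, so that the sign for Bmal1 changed.

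**Figure D3:**
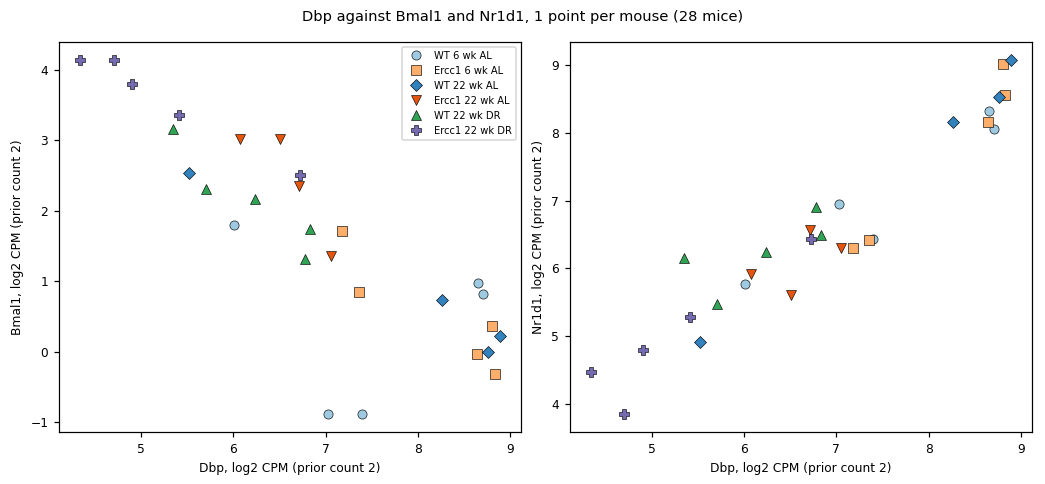
Log2 CPM of Dbp (x axis) against Bmal1 (left, y axis) and Nr1d1 (right, y axis), 1 point per mouse, marked by group, with Ercc1 standing for Ercc1Δ/−. Bmal1 falls as Dbp rises (r = −0.85) and Nr1d1 rises with it (r = 0.96). Of the WT mice at 22 weeks on AL (blue diamonds), 1 lies at low Dbp among restricted mice.

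**Figure D4:**
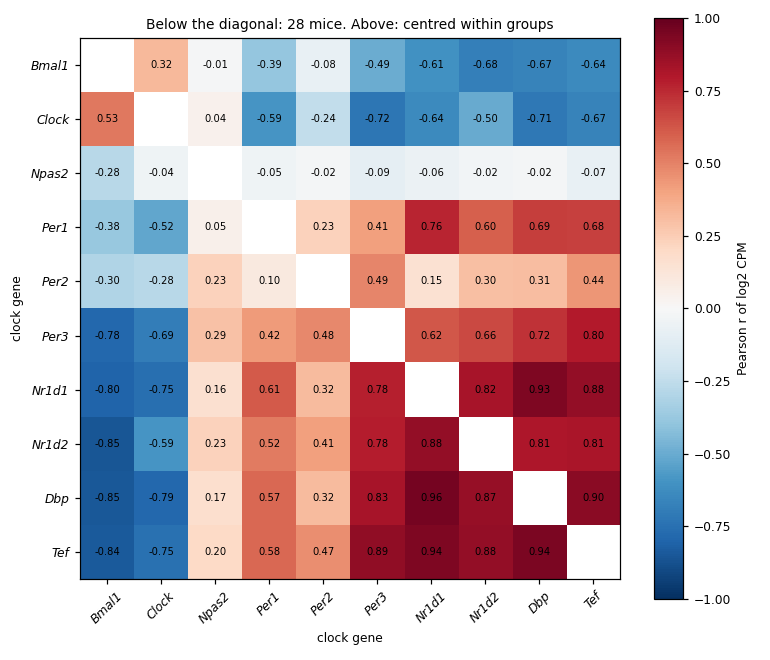
Pearson r of log2 CPM between the 10 clock genes, below the diagonal over the 28 mice and above it after centring within the 6 groups. Per3, Nr1d1, Nr1d2, Dbp and Tef form a positive block, Bmal1 and Clock are opposite to it, and Npas2 is near 0 throughout.

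The difference of log2 CPM between Bmal1 and Dbp put these patterns in 1 value per mouse. Its median was −7.89 in WT and −8.43 in Ercc1Δ/− mice at 6 weeks, −8.10 in WT and −3.93 in Ercc1Δ/− mice at 22 weeks on AL, and −4.07 and −1.10 on DR. The 10 mice at 6 weeks ran from −9.15 to −4.21, and the 10 restricted mice from −5.46 to −0.19. Replicate 012, at −2.99, was the WT mouse on AL food nearest to the restricted Ercc1Δ/− mice. This value was formed after the levels were seen and was not tested.

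The genes most like Bmal1 and Dbp were taken from all other tested genes by Pearson r over the 28 mice. Nearest to Dbp were Bhlhe41 (r = 0.94), a repressor at E-boxes, Tcap (0.92), Hlf (0.90), C1qtnf2 (0.89) and Ciart (0.87), a repressor of BMAL1 and CLOCK. Nearest to Bmal1 were Fetub (0.83), Prodh (0.83), Nfil3 (0.82), Cyp2b10 (0.82) and Ptpru (0.81). Within groups, Nfil3 was at r = 0.84 with Bmal1 and Tcap at 0.91 with Dbp, whereas Fetub fell to 0.45 and Ptpru to 0.42.

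A further 18 clock genes were listed, of which 16 were tested. Of these, 1 was lower in Ercc1Δ/− mice at 22 weeks on AL, 1 lower with age in Ercc1Δ/− mice and 3 lower on DR in WT mice, where 12.0%, 4.69% and 1.28% of all genes were called. Hlf, the third D-box activator, was the gene in both of the former. It was at 77.2, 131, 125 and 161 CPM in WT and 69.5, 48.2, 64.0 and 58.4 CPM in Ercc1Δ/− mice at 22 weeks on AL, without overlap, and fell 0.481-fold there (log2 −1.06, SE 0.25, adjusted p = 0.0111) and 0.482-fold with age (log2 −1.05, SE 0.24, adjusted p = 0.0169). On DR in WT mice Hlf (log2 −0.74, adjusted p = 0.0453), Bhlhe41 (log2 −1.14, adjusted p = 0.0317) and Ciart (log2 −2.37, adjusted p = 0.0453) fell. Ciart was at 3.45 to 7.73 CPM on DR and at 2.62, 31.1, 23.3 and 46.4 CPM on AL, the lowest being replicate 012 again. Cry1 and Cry2, the partners of the PER proteins, were not called in any comparison, nor were Nfil3 and Rora. Cry2 in particular kept to group means of 87.0 to 99.9 CPM. The median log2 fold change of the 16 genes was 0.02 at 22 weeks on AL and 0.02 for DR in WT mice (all tested genes 0.03 and 0.01), against −0.56 and −0.39 for the 10 members. The 16 include genes that ran with Dbp (Hlf, r = 0.90) and with Bmal1 (Nfil3, r = 0.82), so that opposite changes can cancel in their median.

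**Figure D5:**
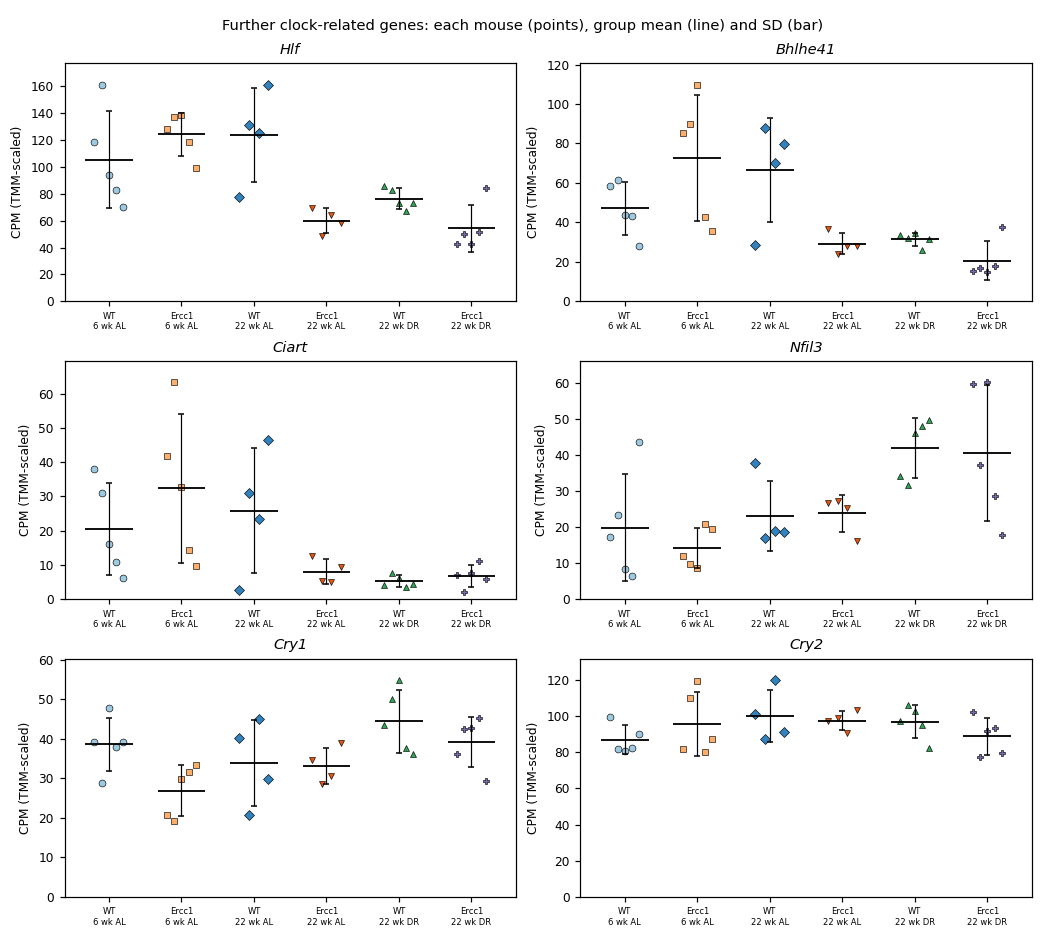
TMM-scaled CPM (y axis, from 0, a scale per gene) of 6 further clock-related genes by group (x axis), with Ercc1 standing for Ercc1Δ/−. Points are mice, lines group means and bars SDs. Hlf, Bhlhe41 and Ciart are lowest in replicate 012 among the WT mice at 22 weeks on AL, as is Dbp, while Cry1 stays between group means of 26.9 and 44.5 CPM.

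Another 10 genes that cycle in many tissues downstream of the clock were all tested. Por, which passes electrons to cytochrome P450 enzymes, Nampt, of NAD salvage, Noct and Dtx4 were higher in Ercc1Δ/− than in WT mice on DR (1.47-fold, 1.59-fold, 1.63-fold and 1.67-fold, adjusted p = 0.00675, 0.011, 0.0385 and 0.0291). These were 4 of the 10, against 13.0% of all genes called in that comparison. Tspan4, a tetraspanin, fell on DR in Ercc1Δ/− mice (0.618-fold, adjusted p = 0.00835). The mean log2 CPM of the list correlated with Dbp at r = −0.29 over all mice and at 0.33 within groups.

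Markers of other cell types differed between genotypes, ages and diets beside these results. Of all tested genes, 12.0% were called for genotype at 22 weeks on AL, 13.0% for genotype on DR and 4.69% for age in Ercc1Δ/− mice. Of 9 smooth muscle markers, which check the tissue, 7 were lower in Ercc1Δ/− mice at 22 weeks on AL and 8 on DR. Their summed level was 33931 to 40226 CPM in WT and 17800 to 27408 CPM in Ercc1Δ/− mice on AL. Of 9 macrophage markers, 8 were tested and 7 were higher at 22 weeks on AL (summed 169 to 239 CPM in WT, 333 to 608 CPM in Ercc1Δ/− mice). Of 8 fibroblast markers 4 were lower there, and the other 4 had log2 fold changes over 0 without being called. Of 8 brown fat markers 3 were higher (summed 162 to 321 CPM in WT, 281 to 1663 CPM in Ercc1Δ/− mice), while 1 of 9 endothelial markers was higher and the 8 lymphocyte markers summed to at most 13.9 CPM in any library. With age in Ercc1Δ/− mice, 4 of 8 fibroblast markers were lower and 4 of 8 tested macrophage markers higher. The log2 fold change with age was over 0, without a call, for 3 of the 8 fibroblast markers. On DR, 4 of 9 endothelial and 4 of 8 tested macrophage markers were higher in Ercc1Δ/− mice and 4 of 8 fibroblast markers lower (1 higher). Of 8 brown fat markers 3 were higher there. On AL at 22 weeks and on DR alike, 1 of 9 white fat and 1 of 7 tested cardiac muscle markers were higher in Ercc1Δ/− mice. For diet, 4 of 8 tested macrophage markers were lower on DR in Ercc1Δ/− mice (1.64% of all genes called). In WT mice, 2 of 8 fibroblast, 1 of 8 tested macrophage and 1 of 9 white fat markers were lower on DR (1.28%). At 6 weeks, 3 of 9 smooth muscle markers were lower and 1 of 8 tested macrophage markers higher in Ercc1Δ/− mice (1.70%). Of 13 glucocorticoid target genes, 8 were higher for genotype on DR, 3 for genotype at 22 weeks on AL and 3 for age in Ercc1Δ/− mice. The age interaction was called, upward in Ercc1Δ/− mice, for 3 of the 13 (0.842% of all genes), and 1 was higher for genotype at 6 weeks. That list of 13 includes Per1, which was not called itself for genotype on DR (adjusted p = 0.368). Over all 28 mice the mean log2 CPM of the fibroblast markers correlated with Per3 at r = 0.65, with Dbp at 0.60 and with Bmal1 at −0.67, and within groups at −0.08, 0.02 and −0.01. For Per3, the smooth muscle markers gave r = 0.28 over all mice and −0.19 within groups, and the macrophage markers −0.24 and 0.26. The part of cell composition in the clock gene differences was not tested, and in whole tissue fewer cells of a type and less RNA per cell cannot be told apart.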

How the data were processed

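RNA of the aortic arch was sequenced with unique molecular identifiers in 29 mice. The authors aligned the reads to mm39 with STAR 2.7.10a (Ensembl annotation), removed duplicates with UMI-tools 1.1.2 and counted reads per gene with HTSeq 2.0.2. The deposited values are whole-number counts per gene without normalization. In all, 5 lines name no gene (12.6% to 18.7% of counted reads) and were kept out. Replicate 003 was left out, as by the authors.

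A gene was tested if over 10 libraries of the 28 had over 10 counts of it, by the robust quasi-likelihood test of edgeR 4.0.16 (Benjamini-Hochberg adjustment) in R 4.3.3, with group and sex in the model. A fit held the 18 AL libraries and a second fit the 18 of 22 weeks. CPM used TMM factors (0.936 to 1.07) and log2 CPM a prior count of 2. The authors used DESeq2, which served here (1.42.0) as an alternative. The procedure was tested on simulated data.

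The members and lists were chosen with earlier results of these data known. Named genes were all members, listed genes called in any comparison, 8 set clock genes (1 of them is not reported here), and the 5 genes most like Bmal1 and Dbp. Figures used Python 3.11.15. Counting intervals and limits cover counting error only.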

Additional observations from a re-analysis of the deposited data

Results flagged for a closer look

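In 4 of the 60 sets of values (10 members in 6 groups) 1 mouse stood apart from the rest of its group by Dixon's test, which chance alone gives in about 5% of sets. In WT mice at 22 weeks on AL, Bmal1 of replicate 012 was at 5.24 CPM with the next mouse at 1.13 CPM, and its Dbp and Nr1d1, low in the same mouse, did not pass that test. In Ercc1Δ/− mice at 6 weeks, Npas2 of replicate 015 was at 6.56 CPM with the next at 4.74 CPM, from 15 counts. In restricted Ercc1Δ/− mice, Per2 of replicate 006 was at 157 CPM with the next at 256 CPM, and Dbp of replicate 022 was at 105 CPM with the next at 42.1 CPM.

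The age effect on Per3 differed between genotypes, with a log2 difference of −1.05 (Ercc1Δ/− minus WT, adjusted p = 0.012 by edgeR). All 4 Ercc1Δ/− mice at 22 weeks were under all 5 at 6 weeks, and WT mice of the 2 ages overlapped.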

How the results depend on the processing

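Per3 stayed called in all 15 alternatives for genotype at 22 weeks on AL (adjusted p = 2.49e-04 to 0.022), in all 16 for age in Ercc1Δ/− mice, and in 24 of 25 for the interaction. The calls for Bmal1 held in 21 of 48 alternatives and those for Per2 in 22 of 32. Their direction did not change in any. The cause was not tested. For age in Ercc1Δ/− mice, 1 member in place of 2 was called without the filter on low counts and with the earlier dispersion method of edgeR, the latter chosen after the data were seen. For genotype on DR, 0 in place of 2 were called without the filter, and 1 with replicate 003 added, with all 6 groups in 1 fit and with the earlier dispersion method. For DR in WT mice, DESeq2 called 1 in place of 0. It called 4 in place of 3 for genotype at 22 weeks on AL, and 3 in place of 2 for age in Ercc1Δ/− mice. The correlation of Bmal1 with Dbp was −0.67 when centred within groups. Leaving out each mouse in turn gave 2 to 6 members for genotype at 22 weeks on AL, 1 to 3 for age in Ercc1Δ/− mice, 0 to 2 for the age interaction, 0 to 4 for DR in WT mice and 0 to 2 for genotype on DR.

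Counts of all genes called ran over the alternatives from 101 to 378 (main 210) for genotype at 6 weeks, 935 to 1685 (1487) at 22 weeks on AL, 8 to 106 (29) for age in WT and 322 to 748 (579) in Ercc1Δ/− mice, 55 to 197 (104) for the age interaction, 44 to 307 (158) for DR in WT and 78 to 348 (202) in Ercc1Δ/− mice, and 2 to 43 (12) for the diet interaction. The lowest of these came without replicate 009, 018, 025, 004, 018, 018 and 026 in that order, and without the sex term for the last. Low counts limit Bmal1 and Npas2. No paired analysis was possible because each mouse gave 1 library and replicate numbers are unique.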
